A study of Homo sapiens with 5 samples.

Results

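The sites described here were the 726 genomic regions that held a MYC peak in all 3 MYC chromatin immunoprecipitation (ChIP-seq) lists from MIA PaCa-2, a long-established line grown from a human pancreatic carcinoma. Peaks of the 3 lists on chromosomes 1 to 22 and X were merged wherever they shared 1 bp. Regions in stretches of more than 2 Mb without any RefSeq gene were left out, and a region was kept if it held a peak of each list. This gave 726 of 11846 merged regions, or 6.13%, which is the share set by the rule itself. The sites were chosen by the presence of the MYC peaks themselves, so their MYC values below are a description and were not tested.

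Each list came from 1 library. MYC was mapped in MIA PaCa-2 cells that express a short hairpin RNA to MED30 (shMED30) when given doxycycline, after 3 days of doxycycline, labelled as 0.5 mg/ml. It was mapped in the same shMED30 line without doxycycline, and in parental MIA PaCa-2 cells. MED17 and MED30 were mapped in parental cells only, so no list gives Mediator occupancy in the shMED30 line. MYC chromatin was fixed with 1% formaldehyde for 10 min, and Mediator chromatin was first treated with 2 mM disuccinimidyl glutarate for 20 min, so fixation differed between the MYC and the Mediator lists. The labels do not say whether the shMED30 line is 1 clone or how far MED30 was lowered. With 1 library per group no difference has a replicate check, no p-value is given, and a shared peak does not measure how much MYC was bound.

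MYC is a basic helix-loop-helix leucine zipper transcription factor that binds DNA as a dimer with MAX, most tightly at the E-box CACGTG. It is best known for driving genes of ribosome production, translation, nucleotide synthesis and metabolism. Mediator is a large complex that passes signals from DNA-bound factors to RNA polymerase II at promoters. MED17 is a core subunit of its head module, and MED30 is a subunit found in animals.

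The lists differed in depth, and this bears on which sites were shared. They held 4621 peaks with doxycycline, 7158 without it and 14331 in parental cells. The genome-wide background recovered from the deposited values was 0.186 fragments with doxycycline, 0.31 without it and 2.56 in parental cells. The sites were 37.5% of the 1935 regions of the doxycycline list (95% interval 35.4% to 39.7%), 28.3% of the 2563 regions of the no-doxycycline list (26.6% to 30.1%) and 6.97% of the 10416 regions of the parental list (6.49% to 7.48%). Of the 781 regions that held a peak with and without doxycycline, 93.0% also had a parental peak (90.9% to 94.7%). Of the 1912 regions with a no-doxycycline and a parental peak, 38.0% also had a peak with doxycycline (35.8% to 40.2%). All intervals are exact Clopper-Pearson intervals that cover counting error only. A MYC peak missing from a shallow list does not show that MYC was absent there, and depth and doxycycline cannot be told apart.

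Promoter sequence at the highest sites is shown first, because it lets the peak summits be read against the E-box. The 4 genes below are the highest-ranked sites at gene starts whose RefSeq promoter window (GRCh38.p14, 250 bases before to 50 after a listed gene start) held CACGTG, and ODC1 was added as a long-studied MYC target. Sites were ranked by the fold enrichment of their strongest peak within each list, and ordered by the lowest of the 3 ranks. All sequences run 5′ to 3′ on the gene's strand, and capitals mark CACGTG.
AIMP2: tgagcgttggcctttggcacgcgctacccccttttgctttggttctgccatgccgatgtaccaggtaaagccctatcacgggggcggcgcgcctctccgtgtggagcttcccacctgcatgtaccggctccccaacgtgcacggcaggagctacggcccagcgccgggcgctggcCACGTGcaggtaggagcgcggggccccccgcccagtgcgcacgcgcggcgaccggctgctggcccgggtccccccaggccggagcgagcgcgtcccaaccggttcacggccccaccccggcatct
TBCB: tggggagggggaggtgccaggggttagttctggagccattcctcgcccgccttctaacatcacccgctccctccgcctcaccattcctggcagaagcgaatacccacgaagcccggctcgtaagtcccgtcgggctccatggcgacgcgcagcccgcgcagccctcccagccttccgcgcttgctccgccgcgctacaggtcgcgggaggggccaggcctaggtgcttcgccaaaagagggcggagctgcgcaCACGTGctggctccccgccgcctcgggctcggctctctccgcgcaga
DNPH1: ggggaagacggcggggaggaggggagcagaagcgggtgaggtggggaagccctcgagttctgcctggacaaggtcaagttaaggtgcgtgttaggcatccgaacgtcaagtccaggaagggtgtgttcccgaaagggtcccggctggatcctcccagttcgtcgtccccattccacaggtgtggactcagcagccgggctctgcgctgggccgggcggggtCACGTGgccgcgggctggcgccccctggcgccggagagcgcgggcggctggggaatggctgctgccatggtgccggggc
WDR43: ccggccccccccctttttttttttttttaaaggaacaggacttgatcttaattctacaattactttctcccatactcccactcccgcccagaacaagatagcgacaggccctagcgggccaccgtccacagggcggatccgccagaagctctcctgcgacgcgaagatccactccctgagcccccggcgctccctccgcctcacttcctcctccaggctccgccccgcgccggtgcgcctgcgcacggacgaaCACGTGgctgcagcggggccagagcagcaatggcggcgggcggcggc
ODC1: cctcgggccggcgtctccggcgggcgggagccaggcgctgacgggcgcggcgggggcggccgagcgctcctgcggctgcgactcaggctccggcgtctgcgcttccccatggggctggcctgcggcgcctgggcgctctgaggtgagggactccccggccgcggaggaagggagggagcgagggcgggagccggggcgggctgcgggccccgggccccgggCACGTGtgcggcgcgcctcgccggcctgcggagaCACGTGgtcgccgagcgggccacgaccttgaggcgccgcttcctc

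The AIMP2 window lay at chr7:6009315-6009614 on the plus strand, at the second of its listed starts. AIMP2 is a scaffold protein of the multi-tRNA-synthetase complex. Its E-box began 75 bases upstream of that start. The MYC summit lay 73 bases upstream with doxycycline, 66 without it and 87 in parental cells, so all 3 summits fell within 14.5 bases of the centre of the E-box.

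The TBCB window lay at chr19:36114717-36115016 on the plus strand, at a site shared with the start of POLR2I, an RNA polymerase II subunit gene. TBCB encodes a tubulin folding cofactor. Its E-box began at base 4 of the gene, and the MYC summits lay at base 15 with doxycycline, 17 without it and 34 in parental cells.

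The WDR43 window lay at chr2:28894417-28894716 on the plus strand. WDR43 takes part in making the small ribosomal subunit. Its E-box also began at base 4 of the gene, and the summits lay at base 9 with doxycycline, 2 without it and 16 in parental cells.

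The ODC1 window lay at chr2:10447963-10448262 on the minus strand. ODC1 encodes ornithine decarboxylase, which starts polyamine synthesis. ODC1 has another listed start, whose window (chr2:10448278-10448577) held no CACGTG and is not shown. The window shown held a pair of E-boxes, beginning 29 bases upstream of the start and at base 6 of the gene. The MYC summit was 8 bases upstream of this start with doxycycline, 31 bases upstream without it, and 8 bases downstream in parental cells. From the other listed start, which lies upstream, the summits were 308, 285 and 323 bases downstream, in the same order.

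DNPH1, which encodes a nucleotide-cleaving hydrolase, was different. Its window lay at chr6:43229432-43229731 on the minus strand, with an E-box 29 bases upstream of the start. The summits lay downstream, by 171 bases with doxycycline, 194 without it and 89 in parental cells, so they were 114.5 to 219.5 bases from the E-box centre. GDI2, the highest-ranked site at a gene start, held none of the E-box letters searched in its window. Its summits lay 386 to 399 bases upstream of the listed start, outside that window. The windows of NCL and NPM1 also held no CACGTG, with summits 612 to 728 bases downstream of the start.

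Over all sites, 598 promoter windows of protein-coding genes overlapped a site, and CACGTG was in 151 of them, or 25.3% (21.8% to 28.9%), against 12.6% of the 6314 windows over other parental MYC regions (11.8% to 13.5%) and 5.81% of the 15049 windows over no MYC region. Among all 22012 windows of 300 bases the share was 8.32%. CACGTG reads the same on both strands. The variant CACGCG, or CGCGTG on the other strand, was in 25.9% of windows at the sites and in 24.8% at other parental regions, against 14.2% of all windows. CATGTG or CACATG was in 7.53% at the sites and 5.7% at other parental regions, against 8.96% of all windows. The GC box GGGCGG or CCGCCC was in 75.4% at the sites and 78.3% at other parental regions, against 56.3% of all windows. Over all overlapping windows, the canonical E-box was the only one of these 4 motifs whose interval at the sites lay wholly above that at other parental regions.

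CpG content did not set the 2 groups of MYC-bound windows apart. The median window held 29 CpG at the sites and 30 at other parental regions, against 13 where no MYC region overlapped. Among windows with 21 to 30 CpG, CACGTG was in 24.5% at the sites, 12.1% at other parental regions and 7.3% without a MYC region. Among windows with 31 or more CpG it was in 26.8%, 12.6% and 7.16%, in the same order, and with 11 to 20 CpG in 24.1%, 13.5% and 8.0%. With 10 CpG or fewer it was in 1 of 10 windows at the sites and 16.5% of 103 at other parental regions.

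E-box content moved with peak strength. Among windows over the sites ranked in the upper 50% of their own MYC folds, 30.7% held CACGTG (25.9% to 35.9%), against 18.0% for the lower 50% (13.5% to 23.2%). When the windows of other parental regions were weighted to the parental folds of the sites, 21.4% of them held CACGTG. This left 25.3% at the sites only slightly higher, with the weighted share just below their interval of 21.8% to 28.9%. The sites had the higher share in 3 of 9 bins of parental fold, among them bins 9 and 10, which held most windows at the sites. In bin 9 the shares were 19.8% at the sites and 18.5% at other parental regions. In the highest bin the shares were 29.8% at the sites (25.4% to 34.4%) and 23.9% at other parental regions (20.3% to 27.7%), with intervals that overlapped. Parental regions that also had a no-doxycycline peak held CACGTG in 20.2% of windows and those with a doxycycline peak in 19.6%, against 10.8% for parental regions with neither. Much of the higher E-box share at the sites thus went with their higher parental fold, and the cause of the rest was not tested.

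Where a window held the MYC summit itself, the difference was wider. The parental MYC summit fell inside 210 windows at the sites, and 45.2% of these held CACGTG (38.4% to 52.2%). At other parental regions it fell inside 3023 windows, and 16.8% held CACGTG (15.5% to 18.2%). CACGCG was in 40% of these windows at the sites (33.3% to 47%) and 30.4% at other parental regions (28.8% to 32.1%), so the variant was higher there too. The GC box shares were 79.0% at the sites and 80.8% at other parental regions. These values were not weighted for fold.

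MYC summits lay close to the E-box in each of the 3 lists. The median distance from summit to the centre of the nearest CACGTG was 24 bp with doxycycline (96 windows that held both), 27.5 bp without it (106 windows) and 18.5 bp in parental cells (95 windows). The summit was within 50 bp in 77.1%, 77.4% and 77.9% of these windows, in the same order. MED30 summits were farther, at a median of 63.5 bp (76 windows), and MED17 summits at 107 bp (20 windows). Only summits inside a window were counted, and windows end 50 bases after the start. MED17 summits had a median of 190 bp downstream, so most were left out and the 20 windows are not typical of MED17. To the GC box, the MYC summits were at medians of 44.5 bp with doxycycline, 45.5 bp without it and 45.0 bp in parental cells. A motif match is a description of these letters and not evidence of binding to them.

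**Figure D1:**
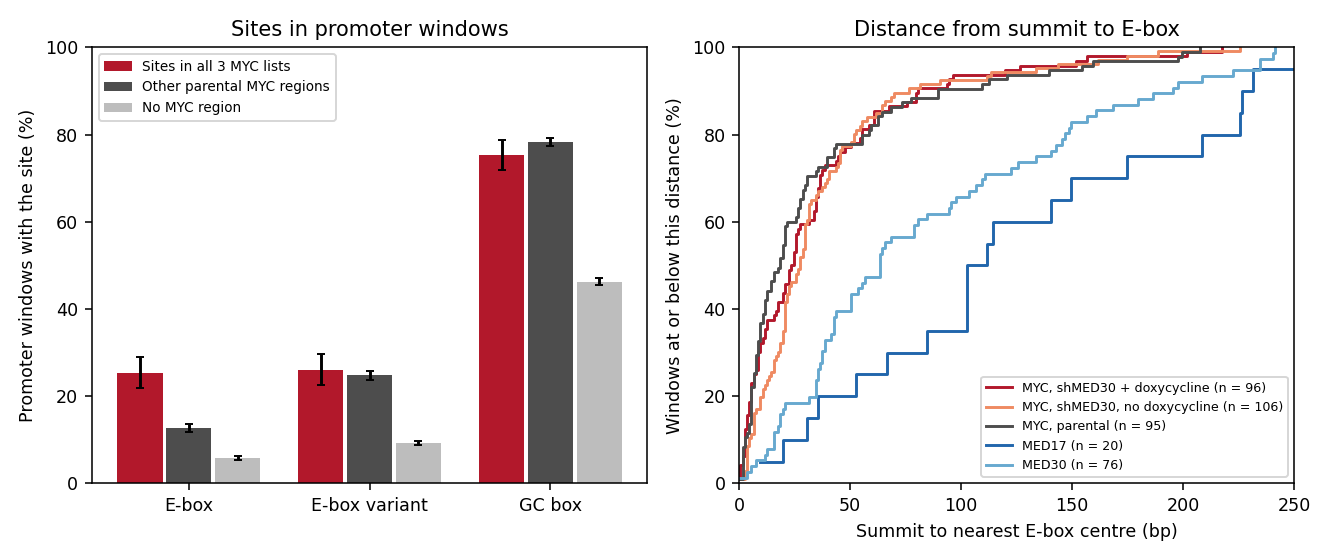
Left, the share of promoter windows (y axis, percent) holding each site for windows over the 726 sites, over other parental MYC regions and over no MYC region; bars are shares and whiskers exact 95% intervals. Right, the cumulative share of windows (y axis, percent) by distance from each list's summit to the nearest E-box centre (x axis, bp). The E-box bar is 25.3% at the sites against 12.6%, and the 3 MYC curves rise together while the Mediator curves rise later. Only summits inside a window count, which leaves out most MED17 summits.

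The 3 MYC lists placed their summits within 100 bp of each other at most sites. At the sites the doxycycline summit was a median of 45 bp from the no-doxycycline summit and 44 bp from the parental summit, and the no-doxycycline summit was 41 bp from the parental one. All 3 summits fell within 50 bp in 234 of 726 sites (32.2%), within 100 bp in 438 (60.3%) and within 250 bp in 601 (82.8%). More than 1 peak of a MYC list was merged into 45 of the 726 sites, and 27 of these were among the 125 sites with summits over 250 bp apart. The median site was 883 bp wide, against 488 bp for other parental regions.

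MED17 summits were centred downstream of gene starts, while MYC and MED30 summits were centred near them. Within single sites MED30 and MYC were often apart. At gene starts the MED30 summit was a median of 196 bp from the parental MYC summit, and within 100 bp in 28.7% of 470 sites. At the 457 sites near a start with a promoter window, the median MYC summit was 53 bp downstream of the nearest start with doxycycline, 30 bp without it and 39 bp in parental cells. MED17 summits were a median of 190 bp downstream, and 80.5% of the 426 lay downstream (76.4% to 84.2%). MED30 summits were centred on the start, with 45.6% of 395 downstream (40.6% to 50.6%). Other parental MYC regions had the same arrangement, with medians of 15 bp for parental MYC and 186 bp for MED17, and 46.6% of MED30 summits downstream. The offset of MED17 was thus not limited to the shared sites.

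**Figure D2:**
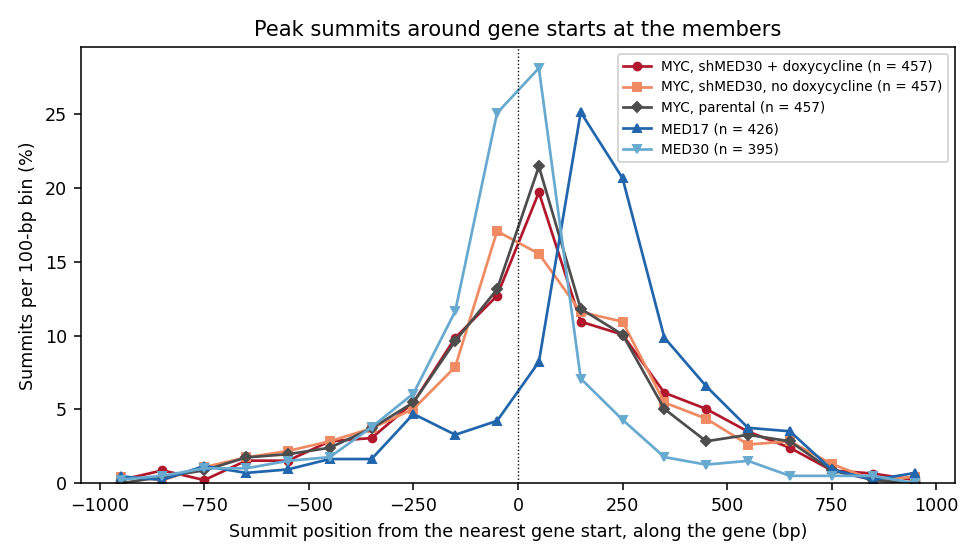
Position of peak summits along the gene (x axis, bp from the nearest gene start, positive downstream) as the share of summits in each 100-bp bin (y axis, percent) at the sites, 1 line per list. The 3 MYC lines and MED30 peak beside the start, and MED17 peaks downstream of it, at a median of 190 bp.

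Fold enrichment, the authors' own value of fragment pileup over local background, was moderate at most sites. The median fold was 6.19 with doxycycline (range 2.74 to 22.4), 7.17 without it (2.32 to 24.2) and 7.65 in parental cells (1.7 to 23.6). Behind these folds stood a median summit pileup of 8 fragments with doxycycline, 12 without it and 54 in parental cells. Other parental regions had a median parental fold of 4.32 and a parental pileup of 21 fragments. Folds of lists of different depth are not on a common scale. Sites were therefore ordered by rank within each list, and folds of different lists set side by side are descriptions only.

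The order of the sites was partly shared. Spearman's rank correlation between folds across the 726 sites was 0.53 for doxycycline against no doxycycline, 0.49 for doxycycline against parental and 0.56 for no doxycycline against parental. Of the 50 highest sites of each list, 30 were shared by the lists with and without doxycycline and 21 by all 3. Sites share a library within each list, and counting error of low pileups enters these values.

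**Figure D3:**
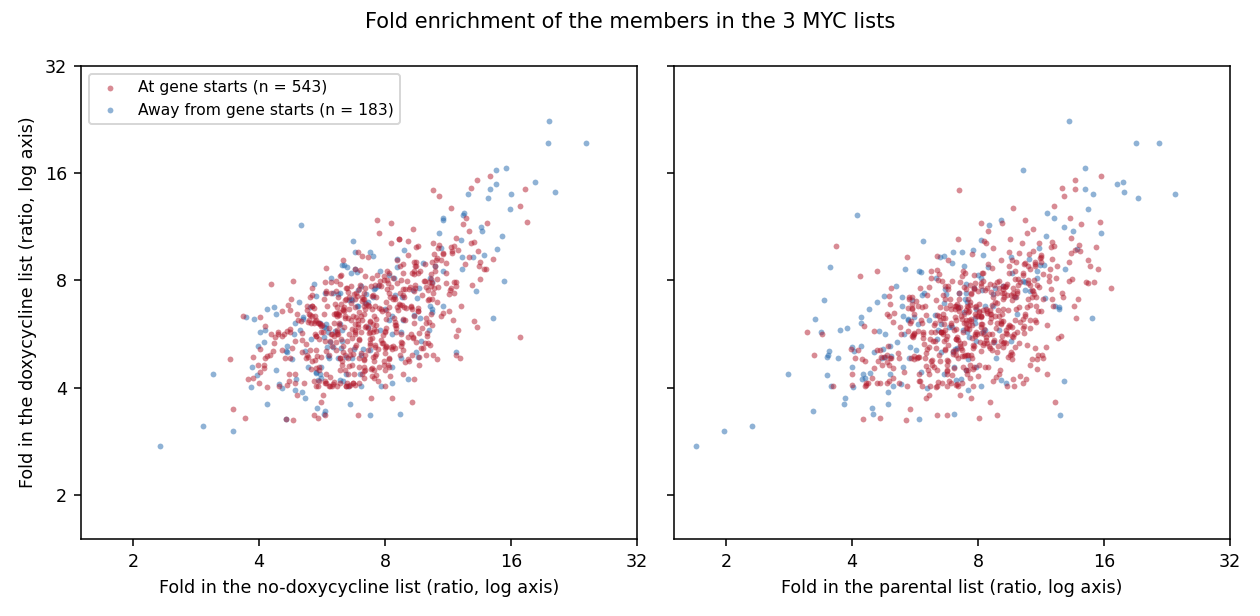
Fold enrichment of each site with doxycycline (y axis, ratio, log axis) against that without doxycycline (left x axis) and in parental cells (right x axis), for sites at gene starts and away from them. Ranks agree in part, with rank correlations of 0.53 and 0.49 over 726 sites.

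Of the sites, 543 (74.8%, 71.5% to 77.9%) lay within 1 kb of the start of a protein-coding gene (of either end, for genes without a listed start), against 70.7% of other parental regions and 71.0% of all 10416 parental regions. The share is close to that background. A further 44 sites lay at the start or end of another kind of gene, 64 inside a gene and 75 between genes. The sites reached the starts of 641 protein-coding genes, which is 3.21% of the 19974 in the table. Of the sites, 98 reached 2 or more starts, so neighbouring genes can share 1 site.

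The highest site at a gene start was at GDI2, which encodes a regulator of Rab GTPases in vesicle traffic (chr10:5813400-5814170, hg38). Its fold was 15.7 with doxycycline, 14.2 without it and 15.7 in parental cells. The site between SNX5, a sorting nexin, and MGME1, a mitochondrial DNA exonuclease, followed with 11.7, 17.5 and 15.7. The site at AIMP2 and the neighbouring PMS2 had folds of 14.5 with doxycycline, 17.3 without it and 13.7 in parental cells. These stood in the top part of all 3 lists.

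PPAN, which acts in making the large ribosomal subunit, shared a site with ANGPTL6 at folds of 15.3 with doxycycline, 13.3 without it and 13.6 in parental cells. SRSF6, a splicing regulator, had folds of 12, 12.5 and 13.2, and was the only site at a gene start with a fold of 10 or more in all 5 lists, with 10.4 for MED17 and 10.7 for MED30. ZNF131, a zinc finger gene, had 14.5, 12.8 and 12.7. CCDC88C, which encodes a regulator of Wnt signalling, had 13, 16.9 and 12.1, and had a MED17 peak at fold 3.98 but none of MED30. Among the 20 highest sites, SRSF6 alone had Mediator folds of 10 or more. MED17 was high without a like MED30 fold at DNPH1 (9.19 for MED17 and 4.88 for MED30), at WDR43 (8.43 and 4.63) and at the mitochondrial ribosome genes MRPL15 (8.59 and 5.94) and MRPL3 (7.54 and 5.18).

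**Figure D4:**
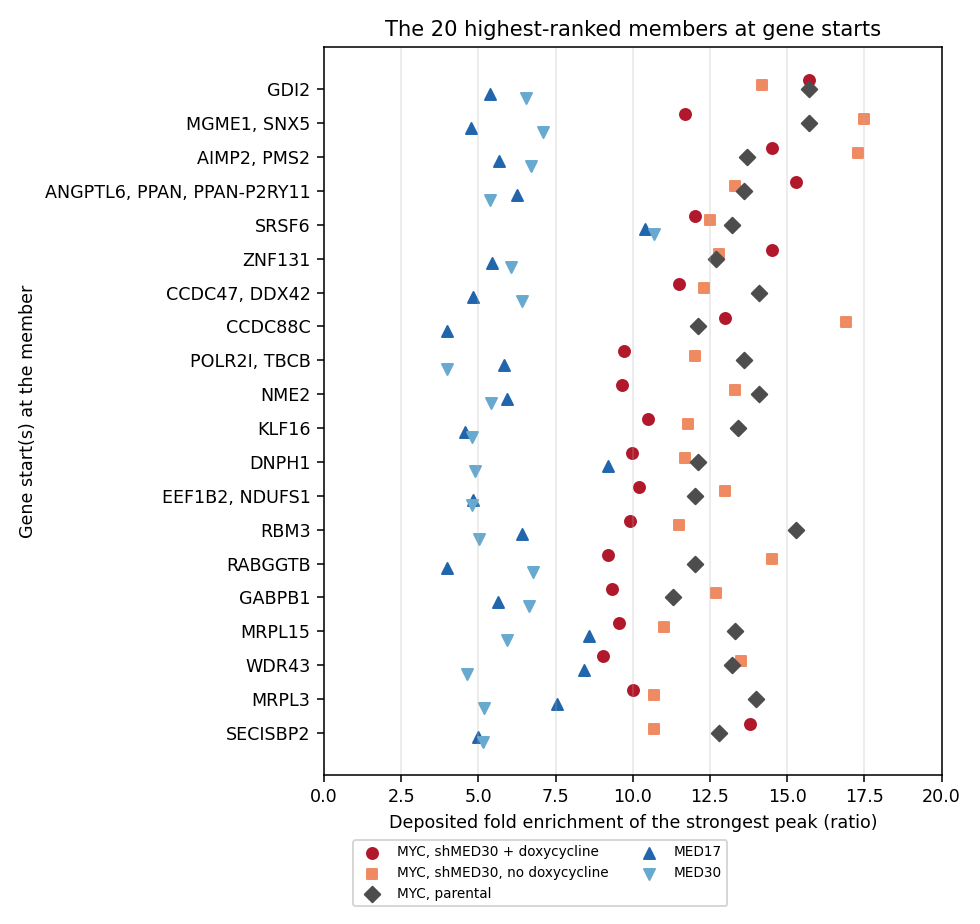
Deposited fold enrichment (x axis, ratio) in each of the 5 lists for the 20 highest-ranked sites at gene starts (y axis, highest at the top). MYC folds lie between 9.03 and 17.5, and Mediator folds lie below 10 at every site but SRSF6.

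Genes of protein synthesis had a site more often than all protein-coding genes did, but most sites lay elsewhere. Lists of genes were compared with the background of 3.21% of all protein-coding genes with a site, and with 40.0% with any parental MYC region at the start, 9.03% with a no-doxycycline region and 5.07% with a doxycycline region. The lists were chosen with earlier results of these data known, and a count above background is not a test. Of 219 genes for ribosomal proteins, ribosome assembly, translation factors and tRNA synthetases, 76 (34.7%) had a site. Their 76 sites were 10.5% of all sites.

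Ribosomal protein genes held 30 of 79 (38.0%), and 77 of the 79 had a parental MYC region. All 30 sites had both Mediator subunits. RPL5, a large-subunit protein, had folds of 8.79 with doxycycline, 10.5 without it and 14.8 in parental cells. RPS23, a small-subunit protein, had 8.62, 13.9 and 11.9, and RPSA, also of the small subunit, 8.6, 13.8 and 15.5. The lowest doxycycline fold of the list was 3.64, at RPL24, where the parental fold was 12.2.

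Mediator folds at ribosomal protein genes differed by subunit. The median was 5.38 for MED17 and 8.58 for MED30, while over all sites at gene starts it was 5.47 for MED17 and 5.38 for MED30. MED30 folds ran from 5.5 at RPL35 to 10.6 at RPL15 and RPL24, so all 30 were above the median over sites at gene starts. The sites of some shorter lists also had a higher median for MED30 than for MED17. It was 8.61 for MED30 (4 of 5 sites) and 4.79 for MED17 at glycolysis genes, and 7.62 and 5.0 at the 4 coding hosts of small nucleolar RNAs. Mitochondrial genes had 6.7 for MED30 and 5.24 for MED17, tRNA synthetases 5.16 and 4.71, and nuclear transport genes 6.03 and 5.92. Several lists went the other way, among them splicing factors, chaperones and nucleotide synthesis genes. Ribosome assembly genes had medians of 5.32 for MED30 and 5.76 for MED17, and translation factors 5.53 and 5.68. The fold at ribosomal protein genes was not tested, and these genes have processed copies elsewhere in the genome whose reads the authors' alignment may have placed differently.

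Ribosome assembly genes held 24 of 73 (32.9%), and all 73 had a parental region. They included NCL, encoding nucleolin, with folds of 10.2 with doxycycline, 12.8 without it and 10.2 in parental cells, and NPM1, encoding nucleophosmin, with 9.02, 9.48 and 11.3. The RNA polymerase I subunit genes POLR1A, POLR1B and POLR1C were among them, with doxycycline folds of 5.78, 7.27 and 4.63. NOLC1, a nucleolar phosphoprotein gene, had folds of 8.8, 9.46 and 9.47.

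Translation factors held 18 of 47 (38.3%). EEF1B2, an elongation factor subunit whose site is shared with NDUFS1, had folds of 10.2 with doxycycline, 13 without it and 12 in parental cells. EIF5A, the factor that carries hypusine, had 9.25, 10.6 and 11.3, and EIF4G1, the scaffold of the cap-binding complex, 8.4, 8.84 and 10.3. At EEF1A1 the MED30 fold was 15.0, against 5.38 for MED17. The tRNA synthetase list held 4 of 20 genes (IARS1, KARS1, LARS1 and YARS1), although all 20 had a parental MYC region. Their doxycycline folds were low, from 3.74 to 5.09.

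Hosts of small nucleolar RNAs, which guide the chemical marking of ribosomal RNA, held 11 of 22 genes. Of all 18177 long non-coding RNA genes, 0.82% had a site at their start or end. The hosts with a site were 7 non-coding hosts (SNHG7, SNHG8, SNHG15, SNHG17, SNHG20, ZFAS1 and EPB41L4A-AS1) and 4 coding hosts (NCL, GNL3, EIF4A2 and RACK1), of which 3 are also counted in the lists of protein synthesis. SNHG15 had folds of 14.0 with doxycycline, 12.6 without it and 15.0 in parental cells, and SNHG17 had 11, 13.6 and 13.5. No site lay at a tRNA gene: 0 of 726, which allows a share of up to 0.413% when taken as 3 counts, or 0.507% by the exact interval. Other parental regions lay at a tRNA gene in 0.258%, so a lower share at the sites was not detectable.

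Nucleotide synthesis genes held 10 of 33 (30.3%). MTHFD2, a mitochondrial enzyme of one-carbon metabolism, had folds of 11 with doxycycline, 12.7 without it and 8.47 in parental cells. CTPS1, which makes CTP, had 9.02, 10.4 and 9.87, and NME2, a nucleoside diphosphate kinase, had 9.66, 13.3 and 14.1. PPAT and PAICS, enzymes of purine synthesis, share 1 site and so count once as a region, with folds of 7.09, 8.34 and 6.85. CAD, the first enzyme of pyrimidine synthesis, had a no-doxycycline and a parental region but no doxycycline peak.

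Glycolysis genes held 5 of 21 (23.8%): HK2, ENO1, PGK1, LDHA and SLC16A1, the last a lactate transporter. ENO1, encoding enolase, had folds of 8.03 with doxycycline, 7.97 without it and 6.42 in parental cells. PGK1, encoding phosphoglycerate kinase, had a MED30 fold of 16.8 and a MED17 fold of 11.4. The polyamine and glutamine list held 4 of 17: ODC1 with 8.09, 10.7 and 9.81, SRM with 7.63, 7.17 and 9.0, GLUD1 and SLC7A5.

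Chaperones held 7 of 27 (25.9%), with CCT5, a chaperonin subunit, at 12.8 with doxycycline, 11.5 without it and 9.67 in parental cells. Splicing factors held 8 of 44 (18.2%), mitochondrial genes 7 of 40 (17.5%), RNA polymerase III genes 5 of 21 (23.8%) and nuclear transport 4 of 27 (14.8%). Cell cycle and replication held 2 of 35 (5.71%), MCM7 and CCNE2, although 25 of the 35 had a parental region. The proteasome list held 1 of 31, PSMA2.

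MYC itself had no MYC region of any list at its start. Of MYC's network, 4 of 19 genes had a site: MXD1 and MXD3, encoding MAX partners that oppose MYC, MLXIP, encoding a related partner of MLX, and RUVBL1, encoding a cofactor ATPase. MXD1 had folds of 8.0 with doxycycline, 8.71 without it and 10.5 in parental cells. MAX had a parental region only. Of the Mediator genes 1 of 33 had a site, at MED20, which shares it with BYSL. MED17 had a no-doxycycline and a parental region. MED30, the hairpin's target, had a doxycycline region only. MED30 has no listed start, so either end of the gene was counted, and this region may lie at either end. A MYC region at MED30 does not measure MED30 RNA, and knockdown was not analysed here.

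Genes of other pancreatic and stromal cell types were without sites. None of the 15 acinar, 15 islet, 11 fibroblast, 14 immune or 9 endothelial genes had one, and 0 of 13 circadian genes and 0 of 14 genes known as repressed by MYC had one. With 3.21% of all genes carrying a site, lists of this size are not informative about an absence. The epithelial list held 1 of 9, MUC1. A MYC peak does not measure expression, so no cell type was read from these lists.

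MED17 overlapped 640 of the 726 sites, or 88.2% (85.6% to 90.4%), against 73.5% of other parental MYC regions (72.6% to 74.4%) and 74.5% of all parental regions. MED30 overlapped 600, or 82.6% (79.7% to 85.3%), against 67.9% (67% to 68.9%) and 69.0% of all parental regions. Both subunits overlapped 566 sites, or 78.0% (74.8% to 80.9%), against 59.6% of other parental regions and 60.9% of all. Neither overlapped 52 sites, or 7.16% (5.4% to 9.29%), against 18.2% of the others. These intervals do not overlap.

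Parental fold moved with this difference. Other parental regions weighted to the sites' parental folds had MED17 in 87.1% and MED30 in 79.8%, so the gap shrank to 1.08 percentage points for MED17 and 2.88 for MED30, against 14.7 each without weighting. The sites had the higher share in 5 of 10 bins of fold for each subunit. In the highest bin MED17 was at 92.8% of 443 sites and 90.3% of 599 other regions, and MED30 at 87.6% of sites and 82.3% of other regions. Width also differed, with medians of 883 bp at the sites and 488 bp at the others, and its part in the overlap was not tested. Counting only a Mediator summit within 250 bp of the parental MYC summit, MED17 was at 47.2% of sites (43.6% to 51.0%) and 40.0% of the others (39.0% to 41%), or 46.6% when weighted for fold. MED30 was at 54.5% of sites (50.8% to 58.2%) and 46.8% of the others (45.8% to 47.8%), or 57.6% when weighted for fold. Pooled over all sites and within bins of parental fold, a higher Mediator share was therefore not shown. The highest bin ran from a fold of 7.07 to 23.6 and held 443 sites, so fold was matched only coarsely there. Sites at gene starts and away from them differed in this.

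**Figure D5:**
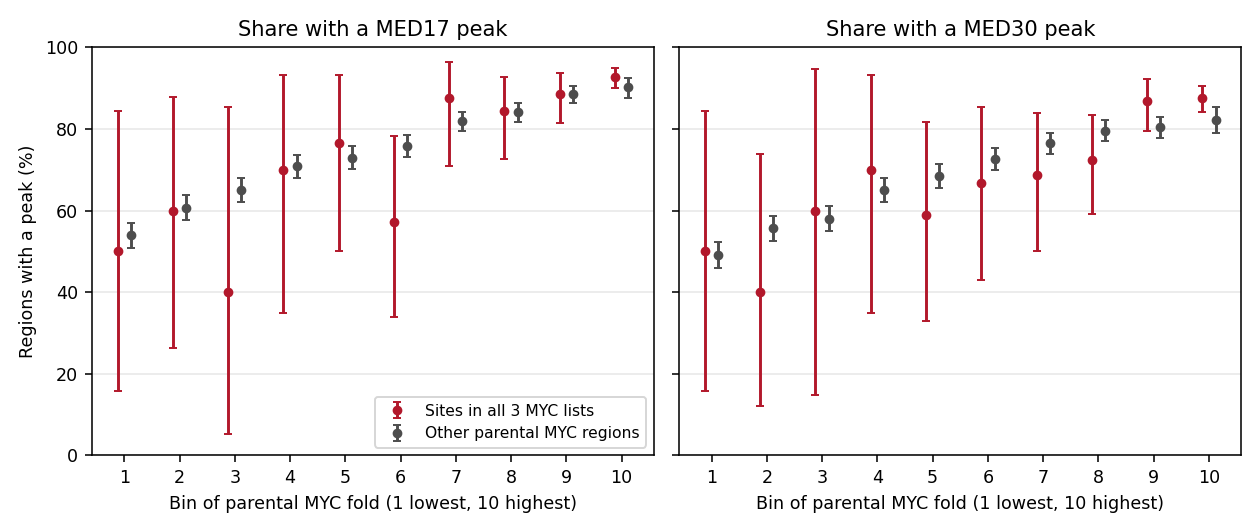
Share of regions with a MED17 peak (left) or a MED30 peak (right) (y axis, percent) in bins of parental MYC fold (x axis). Sites and other parental MYC regions are shown, with points as shares and bars as exact 95% intervals. The 10 bins hold about equal numbers of parental regions, and bin 10 runs from a fold of 7.07 to 23.6. Both groups climb with fold, and the intervals overlap in most bins, with 443 of the 726 sites in bin 10.

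The gap was smaller at gene starts than away from them. At starts MED17 was at 93.4% of sites and 86.0% of other parental regions, or 94.1% of the others when weighted for fold. MED30 was at 86.6% and 76.6%, or 84.7% when weighted. By summits within 250 bp, MED17 was at 45.5% of sites at starts (41.2% to 49.8%) and MED30 at 53.0% (48.7% to 57.3%), against 48.9% and 61% of the others when weighted, so the sites were lower there for both, and for MED30 the weighted share lay above the interval. Away from starts MED17 was at 133 of 183 sites, or 72.7% (65.6% to 79.0%), against 43.5% of 2841 others (41.6% to 45.3%), or 60.3% when weighted. MED30 was at 130, or 71.0% (63.9% to 77.5%), against 47.2% (45.3% to 49%), or 61.1% when weighted. Sites away from starts had the higher share in 9 of 10 bins of fold for MED17 and in 8 for MED30. By summits within 250 bp MED17 was at 52.5% of these sites (45% to 59.9%), against 36.9% of the others when weighted. MED30 was at 59.0% (51.5% to 66.2%), against 45%. Away from starts the weighted shares of the others thus lay below the intervals of the sites by either measure.

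Many sites away from gene starts lay near the edges of gene-bearing sequence. Within 1 Mb of a gene-free stretch, or of the first or last gene of the chromosome, were 56 of 183 sites away from starts, or 30.6% (24.0% to 37.8%), against 10.5% of other parental regions away from starts. Without them MED17 was at 70.9% of the remaining 127 sites (62.1% to 78.6%), against 62.7% of the others weighted for fold, and MED30 at 70.1% (61.3% to 77.9%), against 63.0%. The weighted values of the others then lay inside the intervals of the sites. By summits within 250 bp the remaining sites had MED17 at 48.0% (39.1% to 57.1%), against 38.5% weighted, and MED30 at 56.7% (47.6% to 65.5%), against 45.7%, which lay just below the intervals. At the 56 sites near these edges, MED17 was at 76.8% and MED30 at 73.2%, against 49.7% and 50.2% of the others weighted for fold.

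Among the highest sites away from starts, that near PARD6G held no Mediator peak and is described below. Those with Mediator peaks were of 2 kinds. One kind was high for MYC and moderate for Mediator. A site between genes on chromosome 7 (chr7:4641617-4642501), with FOXK1 the nearest protein-coding gene at 39794 bp, had folds of 19.5 with doxycycline, 24.2 without it and 21.6 in parental cells, but 4.46 for MED17 and 6.66 for MED30. A site at the start or end of the non-coding gene SNHG26 had MYC folds of 12.6, 15.9 and 14.7 and Mediator folds of 5.71 and 6.34.

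The other kind was high in all 5 lists. The site near the end of chromosome X (chrX:156030354-156030737) had folds of 19.4 with doxycycline, 19.6 without it and 19.1 in parental cells, and 18.2 for MED17 and 17.7 for MED30. The site near the end of chromosome 22 (chr22:50807903-50808452) had 14.0, 16, 23.6, 19.5 and 18.2 in the same order of lists. A site at the very start of chromosome 10 (chr10:10017-10371) had 13.9 to 14.5 in every list. Of the 11 sites with a fold of 10 or more in all 5 lists, 10 lay away from gene starts and 8 of those were near these edges. Across the 40 edge sites away from starts that held both subunits, MED17 and MED30 folds had a rank correlation of 0.92. It was 0.67 across the 75 other sites away from starts and 0.13 across the 451 at gene starts. The labels do not say whether an input library was used in peak calling, and no input list was analysed here.

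At sites with a peak of the subunit, Mediator summits lay nearer to the MYC summit away from gene starts. There the median distance to the parental MYC summit was 97 bp for MED17 and 78.5 bp for MED30, against 262 bp and 196 bp at gene starts. MED17 was within 100 bp at 50.4% of 133 such sites away from starts and 18.5% of 507 at starts. These values include the sites near the edges of gene-bearing sequence. Without those, 48.0% of all sites away from starts had a MED17 summit within 250 bp and 56.7% a MED30 summit. The shares at starts were 45.5% and 53.0%, so by this measure the difference was small.

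The sites without either subunit were mostly away from protein-coding gene starts: 17 of 52 lay at a gene start and 12 lay near a gene-free stretch or chromosome end. The highest lay beyond the last gene of chromosome 18 (chr18:80262911-80263229), 15397 bp from PARD6G. Its folds were 14.2 with doxycycline, 20.4 without it and 17.9 in parental cells. At PFN2, encoding a profilin of the actin cytoskeleton, MYC folds of 11.2, 9.32 and 10.9 came with no Mediator peak. SLC12A9, a transporter gene, had 7.98, 9.93 and 8.22. At these gene starts Mediator was not detected at the depth of its lists. Windows over sites with 1 or no subunit held CACGTG in 34.2% of 73 (23.5% to 46.3%), and windows over sites with both in 24.0% of 525 (20.4% to 27.9%), with intervals that overlapped.

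The rank of a site could differ between the lists with and without doxycycline. The difference of within-list percentile (doxycycline minus no doxycycline) had quartiles of -18.2 and 18.8, with 27 sites above 50 and 34 below -50. LDHA, encoding lactate dehydrogenase A, had the largest fall, at -72.7. Its fold was 4.85 with doxycycline, 12.1 without it and 7.73 in parental cells, with summit pileups of 6, 22 and 54 fragments. EIF3A, a subunit of a translation initiation complex, had 4.95, 11.8 and 7.51, and HNRNPU, a nuclear RNA-binding protein gene, 3.64, 9.26 and 8.53. At YARS1, the tyrosyl-tRNA synthetase gene, it was 4.82, 10.6 and 11.

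The largest rise, of 84.1, was at a site 1732 bp from EPB41 with folds of 11.4 with doxycycline, 5.02 without it and 8.48 in parental cells. MATR3, encoding a nuclear matrix protein, had 7.83, 4.27 and 8.52, with pileups of 11, 5 and 63 fragments. RNPS1, encoding a splicing and RNA quality-control protein, had 7.97, 4.81 and 11.8. POGLUT1, encoding a Notch glucosyltransferase, had 8.65, 5.79 and 8.62. The falls and rises named here rest on 4 to 22 fragments in the shMED30 libraries, were picked as extremes of 726, and have no replicate check.

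At the edge of the rule, the sites with the weakest doxycycline significance were RASA2, a site inside ETS1 and ARL6IP6, with doxycycline folds of 3.23 to 3.26 and a pileup of 3 fragments each. Just outside it were regions with strong peaks without doxycycline and in parental cells but no doxycycline peak. URB1, a ribosome assembly gene, had 13.8 without doxycycline and 12.7 in parental cells, and NME1, the neighbour of NME2, had 11.5 and 12.3. These folds are as high as those of many sites. The part of depth in the missing doxycycline peaks was not tested.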

How the data were processed

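ChIP-seq peak lists of 5 libraries, 1 per group, were used, with MED17, MED30 and MYC in parental MIA PaCa-2 cells and MYC in the shMED30 line with and without doxycycline. Each is a narrowPeak list of a single library on hg38, and reads were paired and 100 bp long, per the labels. Tools named in the submitters' processing notes are Trim Galore, Bowtie2, MACS2 and deepTools, and their versions, multi-mapping settings and any input control are not stated there. The deposited fold is a ratio of summit pileup to local background, the deposited significance columns are a −log10 p-value and a −log10 q-value, and the deposited score is taken from −log10 q. Other deposited columns give positions and the summit offset. All these values are the authors' own. Read totals are not part of the lists, so depth was described by pileup: fold as (pileup + 1)/(background + 1) and p as a Poisson tail gave the summit pileup for 99.6% to 99.9% of peaks per list. The lists of the shMED30 line start at a q of 0.098 with doxycycline and 0.099 without it, the parental MYC list at 0.05.

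Peaks were merged at 1 bp overlap with Python 3.11.15, numpy 2.4.6 and pandas 2.3.3, and the merge was checked against bedtools 2.31.1 and on simulated peaks with known overlaps. RefSeq gene positions and promoter windows (GRCh38.p14) were used. A gene start was a listed promoter window's start, and for the genes without a window (15812 of 19974 had one) either end of the gene. Regions in 27 gene-free stretches of over 2 Mb were left out. Shares carry 95% Clopper-Pearson intervals from scipy 1.17.1, which cover counting error only. They treat regions and promoter windows as independent, although several windows can share 1 site. Values weighted for fold give the other parental regions the sites' distribution over 10 bins of parental fold, which hold about equal numbers of parental regions. Distances of summits to starts use genes with a window only.

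Sites and gene lists were chosen with earlier results of these data known. Named sites were the 20 highest at gene starts, 10 highest away from starts by over 5 kb and 10 highest without Mediator, by the lowest of the 3 within-list percentiles; the 5 largest percentile falls and rises; the 5 highest over all lists; 3 just inside and 3 just outside the doxycycline threshold; up to 6 genes of each list; and 10 fixed genes. RPL24, RPL35, RPL15, EEF1A1, SLC16A1 and the list members given only by name were chosen after their values were seen. Alternatives covered the q and fold thresholds, the overlap, the gene-free stretches, the gene start distance and the motif. Some genes that these rules take, and 1 gene list, are left out of the text.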

Additional observations from a re-analysis of the deposited data

Results flagged for a closer look

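Regions with a peak of all 3 MYC lists also occurred in data left out by the rule. In gene-free stretches of over 2 Mb there were 589 of them, among 7274 merged MYC regions there. Their median folds were 5.8 with doxycycline, 6.78 without it and 6.61 in parental cells, and both Mediator subunits overlapped 246 of them (41.8%). On contigs outside chromosomes 1 to 22 and X there were 69, among 586 merged MYC regions. No control list was used to set these against, and what they hold was not tested.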

How the results depend on the processing

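With 1 library per group no replicate could be left out. No paired analysis was possible because each group holds 1 library and the labels number no replicates. Requiring a q of 0.01 or less in every list, summits of the 3 MYC lists within 250 bp, or leaving out stretches over 1 Mb gave 655, 601 and 725 sites, and moved none of the shares of MED17, MED30, both subunits, gene starts or CACGTG by more than its interval. Using the upper 50% of each list by fold left 547 sites, with MED17 at 62.9%, MED30 at 58.7% and both at 44.1%, since fewer Mediator peaks were then counted. A reciprocal overlap of 50% left 136 sites, with MED17 at 78.7%, MED30 at 65.4%, both at 64.0% and gene starts at 44.9%; the cause was not tested. Leaving out no stretch gave 1315 regions, with MED17 at 72.8%, MED30 at 68.6%, both at 61.7% and gene starts at 41.3%. A Mediator summit within 250 bp of the parental summit gave 47.2%, 54.5% and 31.7% for MED17, MED30 and both. A Mediator peak covering 50% of the parental peak gave 78.4%, 70.0% and 61.2%. A gene start within 5 kb gave 78.1%, and starts of every kind of gene 80.9%. Counting CACGTG or CACGCG gave 44.6%. The gap to other parental regions was 14.7 percentage points for each subunit. Weighted over bins of parental fold it was 1.08 points for MED17 and 2.88 for MED30. Without weighting it was 7.42 and 9.99 at gene starts, and 29.2 and 23.9 away from them. The following were chosen after seeing the data. Away from starts and weighted for fold the gap was 12.4 points for MED17 and 9.95 for MED30, and without regions near gene-free stretches or chromosome ends 8.19 and 7.1. At gene starts and weighted for fold it was -0.736 points for MED17, the other direction, and 1.83 for MED30. With a Mediator summit within 250 bp of the parental summit and weighted for fold, it was 0.639 for MED17 and -3.04 for MED30 over all regions, -3.41 and -7.93 at gene starts, 15.5 and 14.0 away from starts, and 9.55 and 11 there without the regions near gene-free stretches or chromosome ends. The direction of the gap at like fold thus depended on place and measure; the cause was not tested. The doxycycline list, with a median summit pileup of 6 fragments, limits which regions can be shared.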
